A study of Mus musculus with 38 samples.

Results

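The genes described here are 10 targets of the unfolded protein response and the integrated stress response, followed in whole brain and liver of mice given haloperidol. They were chosen by name with earlier results of these data known, so their counts beside all genes are descriptions, not independent evidence. A gene was measured where a probe carried its symbol and no other. That held for 8 of the 10, among 18820 genes measured in this way. Of the 7 listed targets of ATF6 and XBP1 in the endoplasmic reticulum (ER), 6 were measured: Hspa5, Sdf2l1, Creld2, Manf, Herpud1 and Xbp1. Of the 3 listed targets of ATF4 in amino acid supply, 2 were measured: Asns and Trib3. Pdia4 was represented only by a probe shared with Mir704 and Ddit3 only by a probe shared with Mars1, so no value is given for either.

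The animals were C57BL/6J mice, an inbred laboratory strain, treated for 30 days either with haloperidol, a dopamine D2 receptor blocker used against psychosis, from pellets that release it slowly, or with placebo. Affymetrix arrays were made from whole brain of 10 haloperidol and 10 placebo mice and from liver of 9 haloperidol and 9 placebo mice. The dose, age and sex are not given in the labels. Whole tissue was ground, so that fewer cells of a type and less RNA per cell cannot be told apart. The arrays give transcript levels, not Xbp1 splicing, protein amounts or phosphorylation of eIF2α. Values are log2 levels normalised by the authors, apparently for each tissue apart, so levels are set against each other within a tissue and a gene only, and changes are haloperidol minus placebo.

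When unfolded proteins build up in the ER, the membrane sensors ATF6 and IRE1 raise the output of chaperone genes, ATF6 by releasing a transcription factor and IRE1 by splicing the mRNA of XBP1. The sensor PERK, and the kinase GCN2 when amino acids run short, phosphorylate eIF2α, which slows general translation and favours that of ATF4, an activator of amino acid synthesis, transport and charging genes. Hepatocytes and neurons secrete or display much protein, and both arms are used in these tissues to match folding and amino acid supply to demand.

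Some promoters of these genes carry the elements by which the arms are usually told apart. Those of 4 members are shown because an element lay upstream of the start. RefSeq promoter windows (GRCm38.p6, 250 bases before to 50 after the gene start) were available for 9 of the 10 genes, Manf being without one. Capitals mark matches on either strand to the ER stress response element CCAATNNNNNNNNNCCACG, its variant ERSE-II (ATTGG and CCACG with 1 base between them), the core of the unfolded protein response element TGACGTG, and the C/EBP-ATF element TGATGNAA bound by ATF4.
Hspa5, chr2:34771923-34772053, plus strand: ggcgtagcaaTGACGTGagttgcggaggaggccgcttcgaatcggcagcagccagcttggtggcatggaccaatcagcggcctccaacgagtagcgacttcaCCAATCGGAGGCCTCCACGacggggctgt
Creld2, chr15:88819510-88819548, plus strand: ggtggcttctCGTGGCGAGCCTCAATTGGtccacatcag
Herpud1, chr8:94386307-94386397, plus strand: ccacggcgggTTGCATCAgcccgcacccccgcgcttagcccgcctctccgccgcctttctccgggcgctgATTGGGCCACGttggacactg
Asns, chr6:7693215-7693242, minus strand: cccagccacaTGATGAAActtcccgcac

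Each line runs 5′ to 3′ along the strand of the gene. In Hspa5 the response element lay at -65 to -47 from the start and the TGACGTG core at -157 to -151. In Creld2 the same response element was read on the opposite strand, at -126 to -108. Herpud1 held both an ERSE-II at -52 to -42 and a C/EBP-ATF element on the opposite strand at -112 to -105, so its window carried letters of both arms. In Asns the C/EBP-ATF element lay at -23 to -16, and in Trib3 a match lay just after the start, at 15 to 22 on the opposite strand. The windows of Sdf2l1, Xbp1, Pdia4 and Ddit3 held no match to any of these elements. Among 27025 windows of the same length, the response element occurred in 0.13%, ERSE-II in 0.037%, the TGACGTG core in 1.99% and the C/EBP-ATF element in 4.06%. The letters describe these windows and are not evidence of binding.

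The tissue labels were borne out by markers. The summed level of 4 neuronal markers in brain lay at a median of 14.05 with haloperidol and 14.10 with placebo, and that of 5 hepatocyte markers in liver between 15.05 and 15.16 with haloperidol and between 15.02 and 15.12 with placebo. Arrays of a group correlated at 0.964 to 0.992. Some brain arrays carried transcripts of other tissues: Alb, the albumin gene, was at 11.11 in haloperidol brain 4T, and growth hormone transcripts (Gh) reached 10.45 in haloperidol brain 1R and 11.49 in placebo brain 1L. Prolactin transcripts (Prl) reached 8.95 in haloperidol brain 2N and 9.03 in placebo brain 1L. The median over all probes of an array lay between 6.08 and 6.33 in haloperidol brains and between 6.27 and 6.40 in placebo brains. In liver it lay between 4.79 and 5.05 with haloperidol and between 4.70 and 4.91 with placebo. Centring each array on that median moved the median change of all genes to 0.12 in brain, against -0.02 without it, and to -0.11 in liver, against -0.02.

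In liver, the first question was whether 30 days of haloperidol altered either arm. The estimates of 7 of the 8 genes were lower with haloperidol, by up to 0.82 log2 units for Asns, but 0 of 8 passed the test over all genes. The test was limma with Benjamini-Hochberg adjustment and a threshold of 0.05. The background was the same, with 0.0% of 12547 genes called in liver. At an unadjusted p under 0.05, 5 of the 8 genes were counted, all of them lower (Asns, Manf, Hspa5, Sdf2l1 and Creld2), beside 6.76% of all genes lower and 3.73% higher. The median change was -0.39 over the 6 ER genes and -0.30 over the 2 amino acid genes, against -0.02 over all genes tested, of which 57.4% had a negative estimate.

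Hspa5 encodes BiP, the main Hsp70 chaperone of the ER, which also holds the stress sensors inactive. Its log2 level in haloperidol livers was 10.99 at the lowest, 11.46 at the median and 11.90 at the highest, against 11.48, 11.78 and 12.11 in placebo livers. The groups overlapped, although 5 of 9 haloperidol livers lay below every placebo liver. Haloperidol livers averaged 11.45 ± 0.30 and placebo livers 11.78 ± 0.21 (SD, n = 9 each), a difference of -0.33 with a 95% interval of -0.57 to -0.09 (limma with Benjamini-Hochberg adjustment, adjusted p = 0.389).

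Manf encodes a secreted factor that binds BiP and is released during ER stress. Haloperidol livers ran from 7.64 to 8.75 with a median of 8.0, against 8.12 to 8.94 with a median of 8.50 in placebo livers. Of the haloperidol livers, 6 of 9 lay below every placebo liver, and 2 placebo livers lay above every haloperidol liver. Its change was -0.45 ± 0.14 (SE), with a 95% interval of -0.74 to -0.16 and an adjusted p of 0.367 (limma, Benjamini-Hochberg).

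Sdf2l1 encodes a partner of the ER co-chaperone DNAJB11 that keeps BiP clients soluble. Its level was 7.79, 9.01 and 9.68 in haloperidol livers as lowest, median and highest, against 8.99, 9.42 and 10.19 in placebo livers. The haloperidol range was the wider of the pair, and 4 of its 9 livers lay below every placebo liver. The change was -0.62 ± 0.23 (SE), interval -1.10 to -0.14, and the limma adjusted p was 0.401 after Benjamini-Hochberg adjustment.

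Creld2 encodes an ER protein with disulfide isomerase activity. Haloperidol livers ran from 8.20 to 10.69 with a median of 8.79, against 9.21 to 10.40 with a median of 9.77 in placebo livers. In haloperidol livers 6 of 9 lay below every placebo liver, while 1 of them, 4N, was above them all. Its change was -0.70 ± 0.26 (SE), which is 1.63-fold lower, with an interval of -1.24 to -0.16 and an adjusted p of 0.401 (limma, Benjamini-Hochberg).

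Herpud1, whose product recruits the ubiquitin ligase complex of ER-associated degradation, and Xbp1, which encodes the transcription factor itself, differed least in liver. Herpud1 averaged 11.72 ± 0.20 in haloperidol livers and 11.81 ± 0.25 in placebo livers (SD, n = 9 each). Xbp1 averaged 10.25 ± 0.35 in haloperidol livers and 10.35 ± 0.34 in placebo livers. Both groups spanned nearly the same range for either gene. The intervals were -0.30 to 0.13 for Herpud1 and -0.40 to 0.22 for Xbp1, so a change as large as the Hspa5 estimate lay outside the interval of Herpud1 and inside that of Xbp1.

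In the amino acid arm, Asns encodes asparagine synthetase, a classic target of ATF4 when amino acids are scarce. Its level was 4.59 at the lowest, 5.10 at the median and 5.42 at the highest in haloperidol livers, against 4.77, 5.64 and 7.59 in placebo livers. All 9 haloperidol livers lay below the placebo mean, and 6 of 9 placebo livers lay above every haloperidol liver. Placebo livers were spread more widely, at 5.82 ± 0.82 beside 5.0 ± 0.31 with haloperidol (SD, n = 9 each), and placebo 3L was the highest of them. The change of -0.82 ± 0.26 (SE), or 1.76-fold lower, had an interval of -1.36 to -0.27 and an adjusted p of 0.367 (limma, Benjamini-Hochberg). With single livers left out it ran from -0.95 to -0.60, and was smallest without placebo 3L. Asns was low on the liver arrays: its haloperidol mean lay near the average array median of haloperidol livers, 4.89. Its placebo mean lay above that of placebo livers, 4.80. When the spread was estimated from all 38 arrays in 1 fit, the limma adjusted p of Asns in liver was 0.0412 after Benjamini-Hochberg adjustment, 1 of 40 genes then called. That fit gives both tissues 1 shared spread, and Asns varied less in brain, with SDs of 0.13 with haloperidol and 0.14 with placebo. The lower p-value therefore rests partly on the tighter brain values.

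Trib3 encodes a pseudokinase that is induced by ATF4 and damps its action. It was the only measured member with a higher estimate in haloperidol livers, at 5.13, 5.48 and 6.39 as lowest, median and highest, against 4.87, 5.32 and 5.74 in placebo livers. The ranges overlapped over most of their length. The difference was 0.21 with an interval of -0.10 to 0.52 (limma with Benjamini-Hochberg adjustment, adjusted p = 0.615). Asns and Trib3, the measured pair of the amino acid arm, thus had estimates of opposite sign in the same livers.

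**Figure D1:**
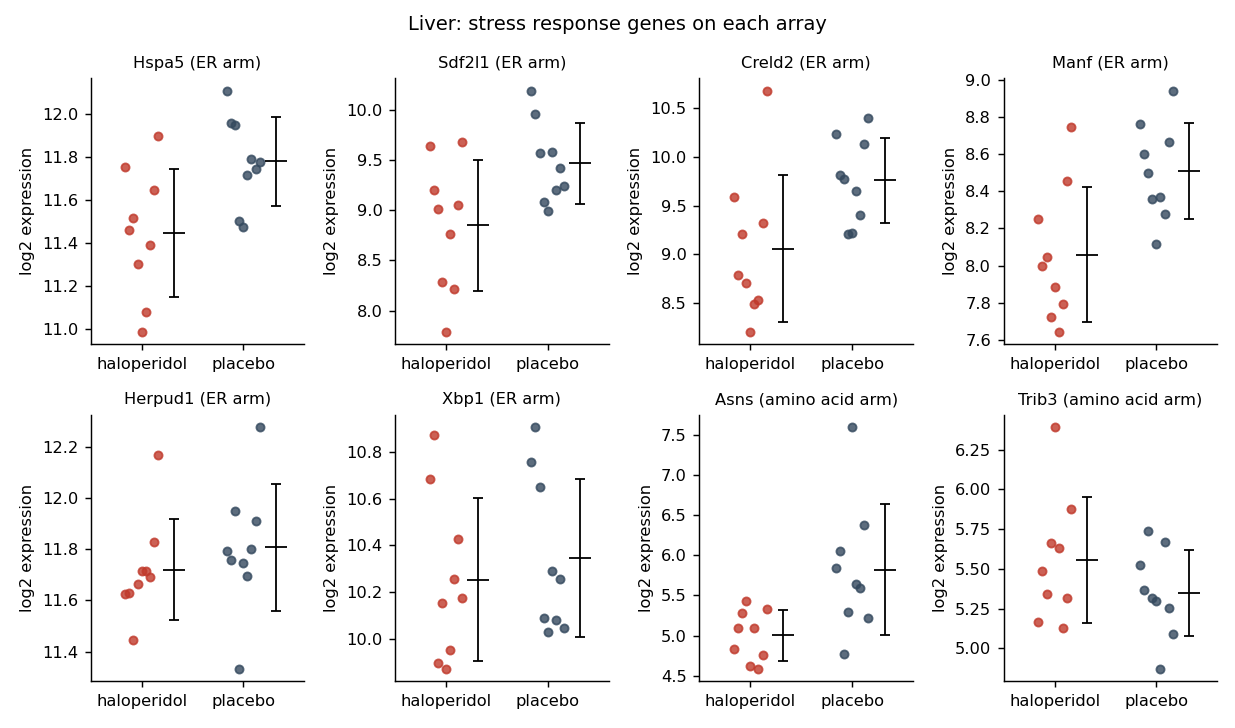
Log2 levels of the 8 measured genes in each liver (points) with the group mean and SD (bars), haloperidol left of placebo in each panel, 9 livers a group. Most haloperidol points for Hspa5, Manf, Sdf2l1, Creld2 and Asns sit low in the placebo range or under it, while the groups lie side by side for Herpud1, Xbp1 and Trib3.

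Cell markers were read beside these liver values. The summed level of 5 Kupffer cell markers was 10.27, 10.45 and 10.91 in haloperidol livers as lowest, median and highest, against 10.38, 10.76 and 11.16 in placebo livers. That of 5 plasma cell markers was 6.55, 7.11 and 7.61 with haloperidol, against 6.97, 7.46 and 7.83 with placebo. Plasma cells are rich in ER chaperones, and the list includes Derl3, an ER degradation gene that other cells also use. Derl3 averaged 6.01 in haloperidol livers and 6.53 in placebo livers. Of the other 4, Igkc averaged 4.19 with haloperidol and 4.39 with placebo (highest 5.79, in placebo 1T), and Jchain 4.14 with haloperidol and 4.21 with placebo. Ighm averaged 4.26 with haloperidol and 4.19 with placebo, and Mzb1 3.92 with haloperidol and 3.78 with placebo. The limit below which genes were left out as dim in liver was 3.92. Pancreatic acinar markers, of which 4 of 6 were measured, were low in both groups, at 5.14 to 5.65 with haloperidol and 5.25 to 5.70 with placebo when summed. The part of the Kupffer and plasma cell markers in the liver values was not tested.

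In brain, no tested member of either arm was called, and Asns was the only amino acid gene tested. Of the 7 genes tested, 0 passed, beside 30.4% of 12547 genes in the same comparison, and 0 had an unadjusted p under 0.05, beside 44.0% of all genes (limma with Benjamini-Hochberg adjustment). Creld2 had the lowest estimate, at -0.27, and Manf the highest, at 0.11. The median change was 0.01 over the 7 genes and -0.02 over all genes.

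Hspa5 in brain was 10.71, 10.99 and 11.37 with haloperidol as lowest, median and highest, against 10.75, 11.06 and 11.37 with placebo. The groups covered the same range. The difference was 0.00 with an interval of -0.20 to 0.20, which does not reach the liver estimate of -0.33. Manf averaged 7.81 ± 0.22 in haloperidol brains and 7.70 ± 0.18 in placebo brains (SD, n = 10 each), with an interval of -0.07 to 0.29 for the difference. Sdf2l1 averaged 9.00 ± 0.44 in haloperidol brains and 8.90 ± 0.40 in placebo brains, with an interval of -0.25 to 0.46. The brain groups covered much the same range for each of these chaperone genes.

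Creld2 was the brain gene nearest to a call. Its level was 7.76, 8.31 and 9.02 in haloperidol brains as lowest, median and highest, against 8.26, 8.40 and 9.06 in placebo brains. Of the haloperidol brains, 4 of 10 lay below every placebo brain, and the upper ends of the ranges coincided. The change was -0.27 ± 0.14 (SE) with an interval of -0.56 to 0.02 and an adjusted p of 0.136 (limma, Benjamini-Hochberg). Of the 20 fits that left out 1 brain, 1 called Creld2. That fit, without haloperidol 1R, gave a change of -0.36 and a limma adjusted p of 0.03 after Benjamini-Hochberg adjustment. Over the 20 fits the change ran from -0.36 to -0.21, and the limma adjusted p reached 0.246.

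Herpud1 averaged 9.58 ± 0.20 in haloperidol brains and 9.56 ± 0.19 in placebo brains, and Xbp1 averaged 10.25 ± 0.24 with haloperidol and 10.30 ± 0.22 with placebo. Asns was 10.66, 10.89 and 11.11 in haloperidol brains as lowest, median and highest, against 10.62, 10.95 and 11.07 in placebo brains. The brain values of Asns thus lay in a band of under 1 log2 unit in either group, and its difference of 0.01 had an interval of -0.12 to 0.14. Trib3 was below the brain limit for dim genes of 5.52 on average, at 5.12 ± 0.27 with haloperidol and 5.25 ± 0.18 with placebo, and was not tested there.

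Scaling matters for signs this small in brain. With each array centred on its median, 6 of the 7 estimates were positive beside an all-gene median of 0.12. Manf in brain then stood at 0.25 with a limma adjusted p of 0.0503 after Benjamini-Hochberg adjustment, and Xbp1 turned to 0.08, against -0.05 uncentred.

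**Figure D2:**
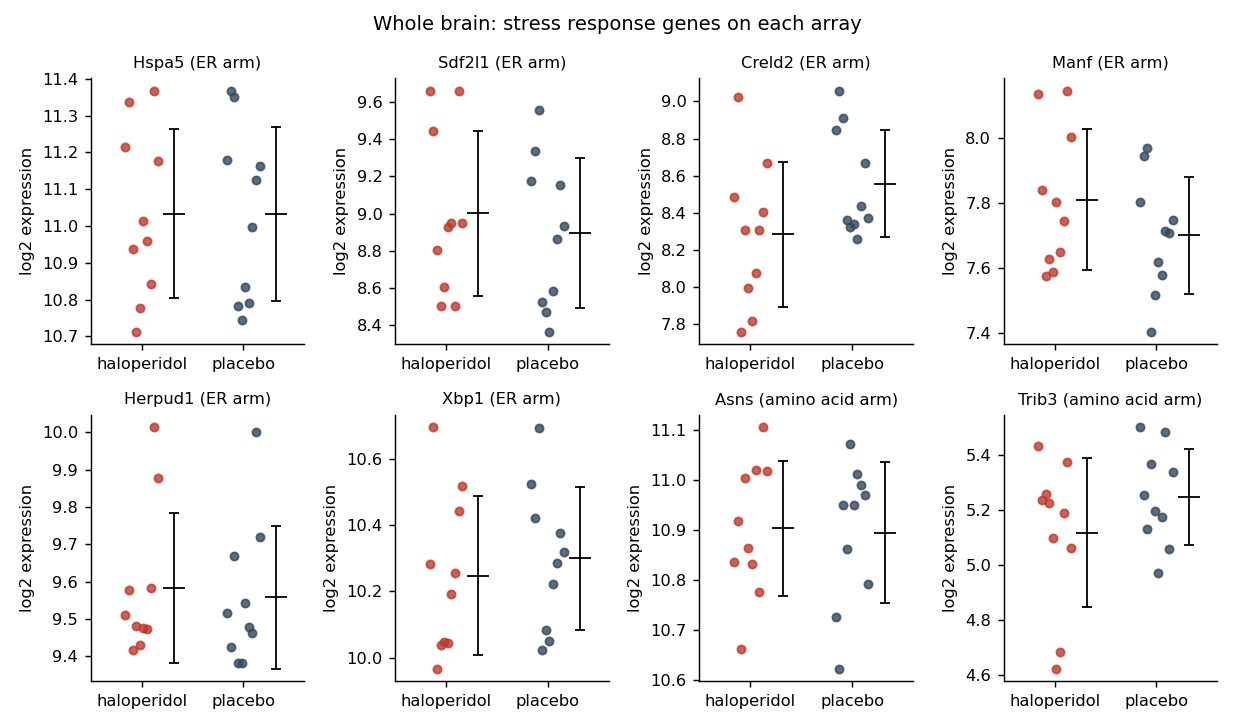
Log2 levels of the 8 measured genes in each brain (points) with the group mean and SD (bars), haloperidol left of placebo in each panel, 10 brains a group. The groups overlap for each gene, and the lowest Creld2 values are haloperidol brains.

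The tissues were then compared directly, by subtracting the brain effect from the liver effect in 1 model over the 38 arrays, for the 7 members measured above the dim limit in both. In this difference 2 of 7 genes passed, Manf and Asns, beside 23.0% of 10869 genes (9.16% higher and 13.9% lower). That share of 28.6% is near the background. Manf was 1 of 6 ER genes tested, while Asns was the only amino acid gene tested, Trib3 being dim in brain. The count depended on the model: with the digit of the sample tag as a block, 4 of 7 members passed (Manf, Asns, Sdf2l1 and Hspa5), beside 2373 of 10869 genes.

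For Manf the estimates were -0.45 in liver and 0.11 in brain, a difference of -0.56 ± 0.16 (SE) with an interval of -0.89 to -0.23 and an adjusted p of 0.0128 (limma, Benjamini-Hochberg). For Asns they were -0.82 in liver and 0.01 in brain, a difference of -0.83 ± 0.26 (SE) with an interval of -1.36 to -0.29 and an adjusted p of 0.0222. Both passed in each of the 38 fits that left out 1 array. With the array median as a covariate the difference was -0.87 for Asns and -0.32 for Manf, neither passed, and 0 of all genes did, with 325 at an unadjusted p under 0.05. Asns also did not pass once 3 brains were left out (placebo 1L, haloperidol 4N and haloperidol 4T), at -0.77 with a limma adjusted p of 0.0633 after Benjamini-Hochberg adjustment.

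Sdf2l1 had a difference of -0.73 with a limma adjusted p of 0.0649 after Benjamini-Hochberg adjustment, and passed in 6 of the 38 fits without 1 array. Hspa5 had -0.33 (adjusted p = 0.109, limma with Benjamini-Hochberg) and Creld2 -0.43 (adjusted p = 0.297). Creld2 was the gene whose estimate was below 0 in both tissues by more than 0.2. Herpud1, at -0.11, and Xbp1, at -0.04, showed the smallest differences.

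**Figure D3:**
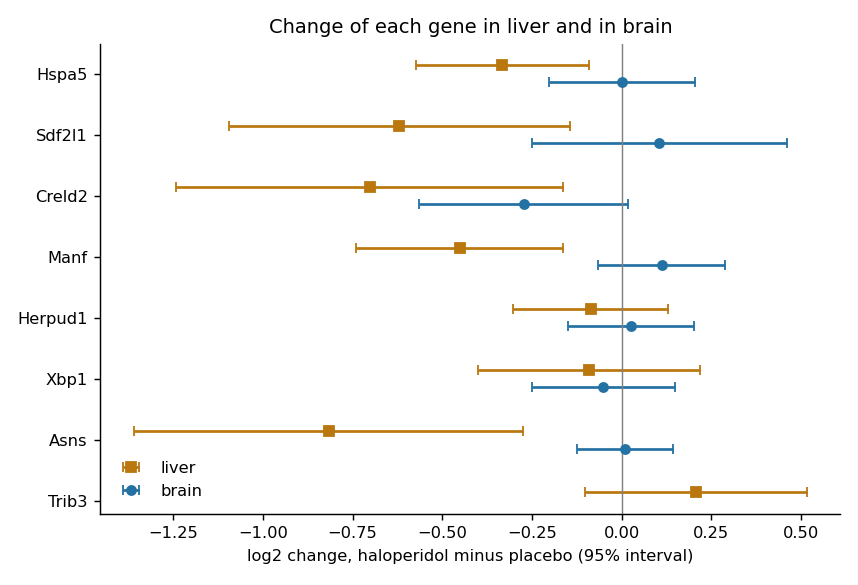
Change in log2 level, haloperidol minus placebo, of each measured gene in liver and in brain (points), with 95% intervals (lines) around each. The liver intervals of Asns, Creld2, Sdf2l1, Manf and Hspa5 lie below 0, and each of the 7 brain intervals includes 0; Trib3 was not tested in brain.

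Across the arrays of a tissue, most ER genes varied together with Hspa5. With group means removed, Hspa5 was correlated with each other measured member, 14 pairs over the tissues. Permutation p-values came from 100000 shuffles within groups, with Benjamini-Hochberg adjustment over the 14. The shuffles took no account of the digit of the sample tag, by which the ER genes differed as described below. The p-values can therefore be too small. In brain (n = 20), Hspa5 followed Sdf2l1 most closely, with Pearson's r = 0.94 (permutation, adjusted p = 7e-05) and Spearman's rho = 0.92 (permutation, adjusted p = 7e-05). Without the 2 arrays farthest from the Hspa5 median r was 0.92.

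Manf followed next in brain with r = 0.87 and rho = 0.91 (permutation, adjusted p = 7e-05 for each), and r = 0.83 without the 2 farthest arrays. Xbp1 had r = 0.84 (permutation, adjusted p = 0.000105), rho = 0.83 (adjusted p = 0.00028) and r = 0.86 without them. Creld2 had r = 0.72 (permutation, adjusted p = 0.00112), rho = 0.71 (adjusted p = 0.00196) and r = 0.70 without them. The weakest of the ER genes was Herpud1, with r = 0.53 (permutation, adjusted p = 0.0274), rho = 0.56 (adjusted p = 0.0226) and r = 0.55 without them. Asns, at r = -0.16 and rho = -0.19, and Trib3, at 0.21 and 0.23, did not pass, with permutation adjusted p-values of 0.535 and 0.487 for r and 0.506 and 0.476 for rho.

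In liver (n = 18) the order began alike. Sdf2l1 had r = 0.86 (permutation, adjusted p = 0.000105), rho = 0.86 (adjusted p = 0.000315) and r = 0.77 without the 2 farthest arrays. Creld2 had r = 0.83 (permutation, adjusted p = 0.000168), rho = 0.82 (adjusted p = 0.000476) and r = 0.76 without them. Manf had r = 0.77 (permutation, adjusted p = 0.00112), rho = 0.80 (adjusted p = 0.00063) and r = 0.74 without them. Xbp1 had r = 0.62 (permutation, adjusted p = 0.0149), rho = 0.65 (adjusted p = 0.0123) and r = 0.70 without them.

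The other liver pairs did not pass. Herpud1 had r = 0.38 and rho = 0.22, with permutation adjusted p-values of 0.161 and 0.48. Asns had r = -0.14 and rho = 0.03 (permutation, adjusted p = 0.535 and 0.975), and Trib3 had r = -0.18 and rho = -0.01 with the same adjusted p-values. Over all pairs of members, the median r within the ER arm was 0.72 in brain and 0.62 in liver, and between the arms 0.14 in brain and -0.14 in liver. With tag digit means also removed, the median within the ER arm was 0.41 in brain and 0.17 in liver. The pair Asns and Trib3 stood at -0.19 in brain and -0.08 in liver, although Trib3 was below the dim limit in brain and its correlations there carry little information.

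By the same measure over 12546 other genes, those most like Hspa5 across the 20 brains were Sdf2l1 (0.94), Manf (0.87), P4ha1 (0.84), Xbp1 (0.84) and Calr (0.83). Calr encodes calreticulin, a lectin chaperone of the ER, and P4ha1 a subunit of the ER enzyme that hydroxylates collagen. Across the 18 livers they were Ubxn4 (0.93), Uso1 (0.93), Ttpal (0.91), Ubfd1 (0.91) and Wars (0.90). Ubxn4 is an ER membrane protein of the degradation machinery, Uso1 a tether for vesicles between ER and Golgi, and Wars the tryptophanyl-tRNA synthetase. These are descriptions without a test. Liver genes correlated more with Hspa5 in general, with a 95th percentile of r of 0.63 in liver and 0.38 in brain.

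The sample titles carry a tag of a digit from 1 to 4 and a letter, and the ER arm differed between arrays of different digits in both tissues. The labels do not say what the digit marks, and each digit holds haloperidol and placebo arrays. The mean of the 6 ER genes, each centred on its tissue mean, was 0.26 in brains tagged 1, -0.25 in those tagged 2, -0.14 in those tagged 3 and 0.12 in those tagged 4 (n = 5 each). The brains tagged 1 ran from 0.17 to 0.36 and those tagged 2 from -0.26 to -0.22, with no overlap. In liver the same means were 0.27, -0.38, -0.19 and 0.28 in the order of the digits, for 5, 4, 5 and 4 livers. Digits 1 and 4 were thus the higher and 2 and 3 the lower in both tissues. The mean of Asns and Trib3 did not follow that order, at 0.02, 0.02, -0.07 and 0.03 in brain and -0.04, -0.01, 0.08 and -0.03 in liver. Only these 2 genes of the amino acid arm were measured, and Trib3 was below the dim limit in brain.

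A moderated F test of the 4 digits over all genes, with treatment in the model, was added after this was seen. In brain it called 3 of the 7 members, beside 0.135% of 12547 genes, namely Creld2 (adjusted p = 0.0281), Xbp1 (0.035) and Hspa5 (0.0369), by limma with Benjamini-Hochberg adjustment. Sdf2l1 stood at 0.0527, Herpud1 and Manf at 0.0612 each, and Asns at 0.655. In liver it called 2 of the 8 members, beside 1.11% of genes, namely Xbp1 (0.00601) and Manf (0.0136), while Asns was at 0.867 and Trib3 at 0.737. Of the wider lists described below, it called 2 of 26 ER folding genes in brain. There it called 0 of 15 of degradation, 0 of 23 other ATF4 targets, 0 of 17 synthetases and 0 of 11 sensors. The liver counts were 2 of 26, 1 of 15, 2 of 22 (Chac1 and Cebpg), 0 of 17 and 1 of 12 (Eif2ak3). The liver calls by digit were thus not limited to ER genes. Hspa5 in brain averaged 11.29, 10.79, 10.92 and 11.13 at digits 1 to 4, and Xbp1 in liver 10.77, 10.00, 10.12 and 10.23. The digit pattern was noticed in these data before it was tested on them, so the test is a description of the same arrays.

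The comparisons with placebo were also made within each digit, where groups were small. In liver each digit held 2 or 3 haloperidol livers and 2 or 3 placebo livers, except digit 2 with 1 placebo liver. In brain each held 2 or 3 arrays a group. In liver the estimate was below 0 at 4 of 4 digits for Asns (-1.43 to -0.18), for Creld2 (-0.92 to -0.26) and for Manf (-0.54 to -0.21). It was below 0 at 3 of 4 for Hspa5 (-0.43 to 0.01), for Sdf2l1 (-0.77 to 0.04) and for Herpud1 (-0.21 to 0.27). For Xbp1 it was below 0 at 2 of 4 digits and for Trib3 at 1 of 4. In brain Creld2 was below 0 at 4 of 4 digits, from -0.40 to -0.06, and Manf at 0 of 4, from 0.08 to 0.24. Of the other genes tested in brain, Xbp1 was below 0 at 3 of 4 digits and Sdf2l1 at 1 of 4. Asns, Herpud1 and Hspa5 were below 0 at 2 of 4 each. With digit as a block the Creld2 change in brain was -0.24 with a limma adjusted p of 0.0361 after Benjamini-Hochberg adjustment, and no member passed in liver. Removing digit means lowered the correlation of Hspa5 with Creld2 in brain to 0.02 and with Xbp1 to 0.33 in brain and 0.18 in liver, while that with Sdf2l1 stayed at 0.83 in brain and 0.70 in liver.

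**Figure D4:**
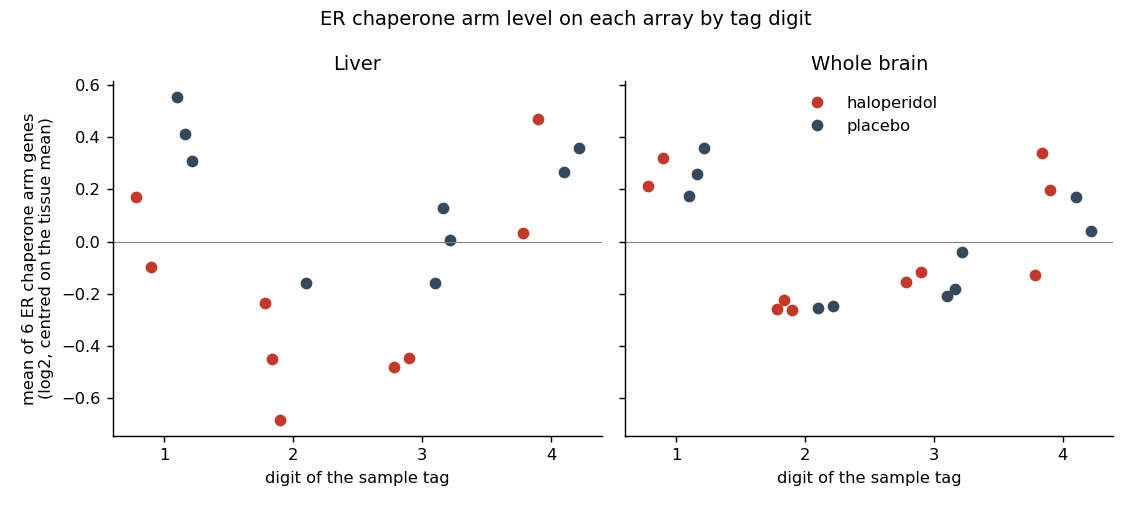
Mean log2 level of the 6 measured ER genes (each centred on its mean in that tissue) in every array, by the digit of the sample tag, with haloperidol and placebo arrays in separate colours. Digits 1 and 4 lie above digits 2 and 3 on average in brain and in liver.

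The wider pathway was described by 5 lists with 106 genes in all, of which 95 were measured. The lists too were chosen with earlier results of these data known, so their counts are descriptions. In liver 0 of 92 tested genes passed (limma, Benjamini-Hochberg), beside 0.0% of all genes, and at an unadjusted p under 0.05 there were 23 lower and 1 higher, where 6.76% of all genes were lower and 3.73% higher. With centred arrays the counts were 49 lower and 1 higher, beside 2226 lower and 150 higher over all genes. All 26 tested genes of ER folding and translocation and all 15 of ER-associated degradation had estimates below 0, with medians of -0.19 and -0.15, where 57.4% of all genes were below 0. Of 22 other ATF4 targets 18 were below 0 (median -0.11), of 17 tRNA synthetases 16 (median -0.14), and of 12 sensors and regulators 8 (median -0.04). Genes of these lists varied together across livers, so the counts are not of independent genes.

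The liver genes of smallest p in each list had limma adjusted p-values of 0.334 or more after Benjamini-Hochberg adjustment. Spcs3, a subunit of the signal peptidase, was at -0.29, and Ostc, a subunit of the oligosaccharyltransferase that adds N-glycans, at -0.37. In degradation Edem2, a mannosidase that marks misfolded glycoproteins, was at -0.23 and Selenos, an ER membrane selenoprotein, at -0.18. Psph, the last enzyme of serine synthesis, was at -0.21. The tRNA synthetases Wars and Hars were at -0.32 and -0.17. Creb3l2, an ER-bound transcription factor, was at -0.36.

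Against that direction, Fgf21, a liver hormone gene induced by ATF4 among other factors, averaged 4.60 ± 0.23 in haloperidol livers and 4.23 ± 0.17 in placebo livers (SD, n = 9 each). Its estimate of 0.37 had a limma adjusted p of 0.334 after Benjamini-Hochberg adjustment. Fgf21 was a dim gene in liver. Both means lay above the limit of 3.92 but below the average array median, 4.89 with haloperidol and 4.80 with placebo. Eif2ak4, which encodes the amino acid sensor GCN2, was at 0.18. The Asns estimate was therefore not shared in sign by every ATF4 target in liver.

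In brain 27 of 92 listed genes passed, 11 higher and 16 lower, a share of 29.3% near the 30.4% of all genes called, 15.2% in each direction. ER folding had 5 higher and 3 lower of 26, degradation 2 and 2 of 15, and the other ATF4 targets 4 and 2 of 23. The tRNA synthetases had 0 higher and 5 lower of 17 and the sensors 0 higher and 4 lower of 11. These directions depended on the scaling: with each array centred on its median, 26 genes were higher and 1 lower, with 2 higher and 0 lower among the synthetases and 1 higher and 0 lower among the sensors. Over all genes the split was 1911 higher and 1905 lower, and 4088 higher and 467 lower after centring. With the array median as a covariate, 0 listed genes and 0 of all genes were called, with 550 of all genes at an unadjusted p under 0.05.

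Among the brain genes that rose under both scalings, Ostc was at 9.35, 9.73 and 10.02 with haloperidol as lowest, median and highest, against 8.99, 9.13 and 9.47 with placebo. The haloperidol median lay above the highest placebo brain, and the change was 0.51 (limma with Benjamini-Hochberg adjustment, adjusted p = 0.00337). Cnpy2, an ER resident protein, rose by 0.58 (0.00479), P4hb, the classic protein disulfide isomerase, by 0.39 (0.00574), and Dnajb9, a BiP co-chaperone, by 0.39 (0.00759). In degradation Erlec1, an ER lectin, rose by 0.22 (0.00935) and Selenos by 0.27 (0.039). In the ATF4 list Psph and Phgdh, the last and first enzymes of serine synthesis, rose by 0.49 (0.0205) and 0.36 (0.0232), and Ddit4, an inhibitor of mTORC1, by 0.30 (0.0269).

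Slc38a2, an amino acid transporter and ATF4 target, was lower in haloperidol brains under both scalings, at 10.57, 10.92 and 11.34 as lowest, median and highest, against 11.10, 11.20 and 11.32 in placebo brains. Its change was -0.32 (limma, Benjamini-Hochberg, adjusted p = 0.00521). The sensor genes Eif2ak3, for PERK, at -0.28 (0.00934), Eif2ak4, for GCN2, at -0.25 (0.0158), Ern1, for IRE1, at -0.25 (0.0199) and Mbtps1, for the protease that cleaves ATF6, at -0.19 (0.0446) passed without centring and did not with it. The same held for the synthetases Nars (-0.23, 0.0075), Farsa (-0.22, 0.0114), Iars (-0.17, 0.0169) and Cars (-0.18, 0.0232), and for Edem3 (-0.24, 0.0146) and Sel1l (-0.20, 0.0351) of degradation. The summed level of 5 microglial markers in brain was 9.98, 10.36 and 10.58 with haloperidol as lowest, median and highest. With placebo it was 9.73, 10.06 and 10.20. The markers did not all move alike. Tyrobp averaged 8.38 with haloperidol and 7.62 with placebo, Aif1 6.14 and 5.57, and P2ry12 7.07 and 6.68. Cx3cr1 averaged 8.09 and 7.93 in that order, and Csf1r 8.81 and 8.83. The summed level of 5 choroid plexus markers had a median of 12.41 with haloperidol and 12.42 with placebo. Of these, Calml4 averaged 6.89 with haloperidol and 6.10 with placebo, Kcne2 6.55 and 6.12, and Folr1 7.43 and 7.15. Ttr averaged 12.27 and 12.15 in that order, and Kl 7.53 and 7.51. The part of the microglial and choroid plexus markers in the brain values was not tested.

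In the difference between tissues 15 of 90 listed genes passed, 2 higher and 13 lower, which is 16.7% beside 23.0% of all genes. With centred arrays it was 0 higher and 46 lower, or 51.1%, beside 272 higher and 4073 lower over all genes. ER folding held 9 of the 13 lower ones without centring. Dnajb9 stood at -0.90 (limma with Benjamini-Hochberg adjustment, adjusted p = 0.0115), Spcs3 at -0.38 (0.012) and Ostc at -0.88 (limma with Benjamini-Hochberg adjustment, adjusted p = 0.000595), with Ssr3, a subunit of the translocon-associated complex, at -0.67 (0.00386), Cnpy2 at -0.65 (0.00454) and P4hb at -0.45 (0.0039). Selenos was at -0.46 (0.00858). Among ATF4 targets Psph stood at -0.70 (0.00555), Ddit4 at -0.59 (0.0134) and Cth, an enzyme that makes cysteine, at -0.41 (0.0129), while Vldlr, a lipoprotein receptor, was at 0.39 (0.0452). Eif2ak4 was at 0.43 (0.00913), with estimates of 0.18 in liver and -0.25 in brain.

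**Figure D5:**
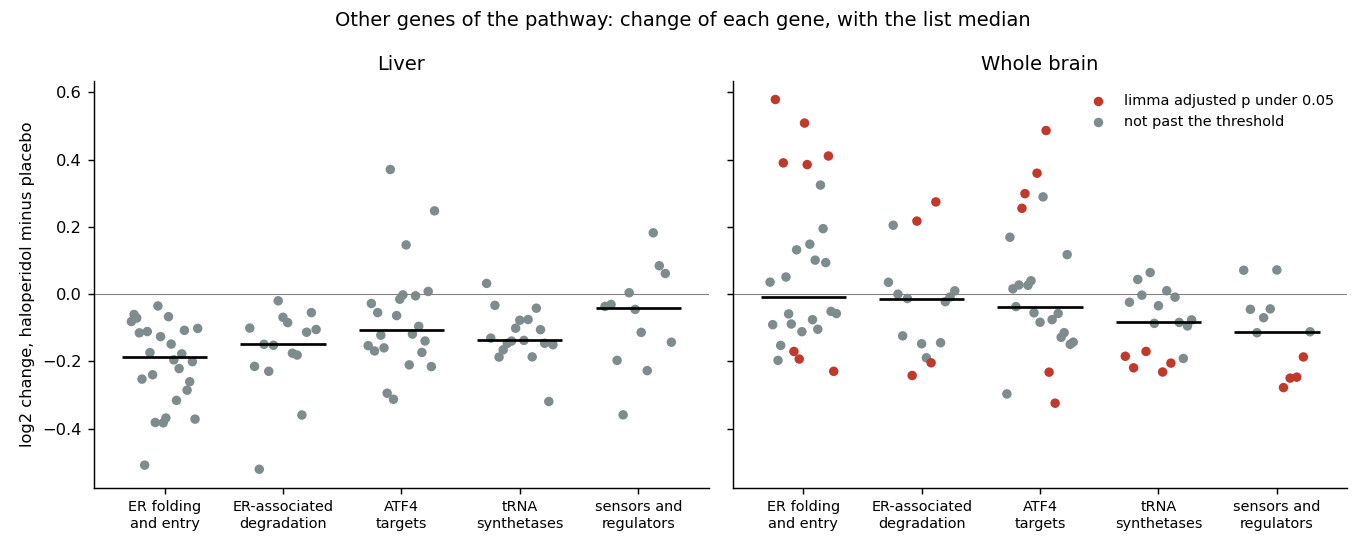
Change in log2 level, haloperidol minus placebo, of every tested gene in the 5 pathway lists in liver and in brain (points, red where the limma adjusted p passed), with list medians (lines). All ER folding and degradation genes lie below 0 in liver, and brain genes lie on both sides of 0.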

How the data were processed

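Per the submitters' processing notes, the authors used Affymetrix Expression Console and its RMA method, and they deposited log2 values. The deposited arrays did not share 1 distribution exactly, lying within 0.21 (brain) and 0.23 (liver) log2 units of their tissue's mean distribution, and total RNA per tissue was not measured. No read depth applies, and the number of arrays limits the precision. Of 35556 probes, 21218 had 1 gene symbol in GEO's platform annotation. The probe with the highest mean was kept for each gene. The dimmest 33.3% of genes of a tissue were left out, and haloperidol was compared with placebo over the other 12547 by lmFit and eBayes of limma 3.58.1 (R 4.3.3, two-sided, Benjamini-Hochberg adjustment, threshold 0.05). The tissue difference was a contrast in a fit of all 38 arrays over 10869 genes. Intervals are at 95% and unadjusted. The fits were tested on simulated data. The members and lists were chosen with earlier results of these data known. The text names every measured member and, from each list, up to 4 called genes of smallest p, or the 2 of smallest p where none was called. Markers, promoter motifs, correlations and tag digits were described as stated beside them. Alternatives covered the dim filter, centring, the variance model, probe averaging, array weights, blocks, a covariate and omitted arrays.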

Additional observations from a re-analysis of the deposited data

Results flagged for a closer look

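The effect of haloperidol differed between liver and brain, by the test of the difference itself, for 14 of the named genes. Over all genes, 23.0% of 10869 passed the same test, and 0 did with the array median as a covariate. The listed genes are given here because they passed, so their number is not a share to set beside that background. Among the members these were Manf, at -0.56 for the liver effect minus the brain effect, and Asns, at -0.83. In ER folding the differences were -0.90 for Dnajb9, -0.88 for Ostc, -0.38 for Spcs3, -0.67 for Ssr3, -0.45 for P4hb and -0.65 for Cnpy2, and in degradation -0.46 for Selenos. Among ATF4 targets they were -0.70 for Psph, -0.41 for Cth, -0.59 for Ddit4 and 0.39 for Vldlr, and among sensors 0.43 for Eif2ak4. For Vldlr leaving out 1 of the 38 arrays lost the call in 22 cases. No single array lay far from the others of its group by Dixon's criterion in the 32 sets of values checked.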

How the results depend on the processing

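The liver estimates of Creld2, Manf, Hspa5 and Sdf2l1 were below 0 under each alternative run. That of Asns was below 0 under each that tested it, the filter on the lowest 50% of genes having removed it. In liver 0 members passed except 1, Asns, in 1 fit of all 38 arrays. In brain 1 member, Creld2, passed with tag digit as a block, and 0 to 1 passed when single arrays were left out. Of the 27 listed genes called in brain, 15 were called in 1 fit of all 38 arrays and 0 with the array median as a covariate. The count of members with a tissue difference, 2 in the report, was 1 with the lowest 50% of genes left out, which removed Asns, 4 with centred arrays, 4 with tag digit as a block, and 0 with the covariate. With arrays omitted after the data were seen, it was 1 without 3 brains (placebo 1L, haloperidol 4N and haloperidol 4T) and 5 without haloperidol 4N and placebo 3L livers. Sdf2l1 gained the call without placebo 1T, haloperidol 2N or haloperidol 4L brain and without haloperidol 1B, placebo 3L or haloperidol 4N liver, its limma adjusted p reaching 0.0323 at the lowest after Benjamini-Hochberg adjustment. Omitting 1 brain lost the calls of Ddit4 (haloperidol 1B, 3B or 4N, adjusted p up to 0.0541 by limma), Mbtps1 and Sel1l (10 brains each) and Selenos (12 brains).

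Small brain estimates turned in sign. With array weights Asns was -0.055 and Herpud1 -0.011, and without the 3 brains named above Asns was -0.049, Herpud1 -0.069 and Hspa5 -0.043. With single arrays left out, Asns ranged from -0.021 to 0.036, Herpud1 from -0.022 to 0.075 and Hspa5 from -0.0365 to 0.038. With the array median as a covariate, brain estimates were -0.16 for Asns, -0.23 for Herpud1, -0.060 for Hspa5, -0.062 for Manf, -0.0053 for Sdf2l1, -0.075 for Phgdh, -0.045 for Selenos, 0.016 for Cars and 0.041 for Eif2ak4. With it Xbp1 was 0.081 in liver, and the tissue differences were 0.15 for Herpud1, 0.048 for Kars and 0.18 for Xbp1. Centring gave Xbp1 0.084 in brain. Tag digit as a block gave Xbp1 0.0079 in liver and 0.034 in the difference, which ranged from -0.12 to 0.030 without single arrays. The causes were not tested.

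Brain and liver shared 18 tags. The arrays of a tag did not deviate together: 5 of 18 pairs correlated above 0.1, and 0 of 18 livers correlated best with the brain of its tag. With the tag as a replicate block in 36 arrays, 3 members had a tissue difference, Asns, Manf and Sdf2l1, and Xbp1 turned to 0.014. With it as a random block in 38 arrays there were 2.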
